A study of Mus musculus with 6 samples.

Results

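Expression of the hypoxia-inducible factor (HIF) pathway was examined in neural stem cells (NSCs) grown at 21% O2, with a wild type genotype (WT) or with 1 copy of Setd5 mutated (Setd5+/−). The genes described are Hif1a, Epas1, Egln1, Egln3, Vhl, Vegfa, Ndrg1, Adm, Ankrd37 and P4ha1, which are 10 of the 53110 genes listed in the deposited table. They were taken by symbol and had been chosen by their role in the response to low oxygen with their levels and fold changes in this same comparison already known, so their values are given as a description and no test is applied to them. The cells were primary cultures from the cortex of mouse embryos in mid-gestation, kept attached to Matrigel in a medium with EGF and bFGF, and the mutation had been made with CRISPR-Cas9. RNA-seq libraries were made from total RNA with a kit that does not mark the strand, and 3 samples of each genotype were labelled. The labels name no treatment beyond the oxygen level, which both genotypes shared.

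The variance of the reads between samples of a genotype was 1.95 times the mean in WT and 1.94 times in Setd5+/−. Sampling of read pairs counted as 2 reads gives up to 2, so the 3 samples of a genotype agreed within sampling noise. After dividing the reads by 1.94, the chi-square per degree of freedom was 35.8 to 35.9 for the 9 pairs of unlike genotype. For the 6 pairs of one genotype it was 0.988 to 1.01, which that division sets near 1 in advance. In the header of the table each genotype also shows 1 index and 1 lane, and the mutant columns name a single clone, A3. The clones that the study's text names are others (B4, C5 and D3), so these columns were taken as Setd5+/− by their sample number and because no further mutant group is labelled. The study's supplement also labels the same columns as het, with the same numbers. The 3 samples were therefore counted as 1 sample, a library, per genotype, and no SD and no test between the genotypes could be had. The genotype therefore cannot be told apart from the clone, the culture, the library or the lane. Reads counted on genes ranged from 9995980 to 10004948 per sample in WT and from 7143309 to 7146147 in Setd5+/−. Values are normalized counts, that is, reads divided by a size factor of the sample, and 1 read is worth 0.827 to 0.829 normalized counts in WT and 1.19 in Setd5+/−. Fold changes are log2((mean in Setd5+/− + 1) / (mean in WT + 1)) with a 95% interval that covers counting error only. Genes whose mean over the 6 samples reached 10 normalized counts are called tested, meaning that they passed this filter on low values.

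The targeted gene was looked at first. Setd5, a SET-domain protein of chromatin, stood at 2498, 2749 and 2780.05 normalized counts in WT, against 2151, 1989.9 and 2055 in the mutant. All mutant samples lay below all WT samples, and the mean was 1.3-fold lower (1.24 to 1.36), a log2 fold change of −0.37. All 8 neural stem cell markers were present in both libraries. Fabp7, a lipid-binding protein of radial glia, was lower at −1.65 and carried the sum of the list, which was 53177 to 53502 normalized counts in WT and 32791 to 33057 in Setd5+/−. Without Fabp7 the sum was higher in Setd5+/−, at 21223 to 21674 against 17267 to 17289.9. The intervals of Vim (0.60), Hes5 (0.43) and Pax6 (0.40) lay above 0 and those of the other 5 below, with Hes1 at −1.09. Of 5 astrocyte markers, Gfap (3.87), Aqp4 (1.68) and S100b (1.12) were at least 2-fold higher and Slc1a2 (−1.93) and Aldh1l1 (−1.36) at least 2-fold lower. The sum of the 5 was 5410.2 to 5540.1 in WT and 2419 to 2659 in Setd5+/−. Slc1a2, at 4678 in WT and 1225 in Setd5+/−, carried most of the WT sum. The neuronal sum, 10164 to 10522 in WT and 12458 to 12587 in Setd5+/−, was nearly all Map2 (0.32). Without Map2 it was 300.6 to 330.9 and 66.7 to 83.4, and Dcx was at −3.2 and Tubb3 at −0.37 with an interval that held 0. Rbfox3 and Stmn2, both under a mean of 10 normalized counts, had 27 and 2 reads in WT and 0 in Setd5+/−. The oligodendrocyte lineage summed to 13261 to 13373 and to 9991 to 10381, with 6 of 8 markers tested, from Mbp at −2.18 to Cspg4 at 0.91. Mbp passed the filter through the WT library alone. Olig2, at 10646 in WT and 6078 in Setd5+/− (−0.81), carried most of this sum. Of the 6 tested markers, 4 had an interval above 0 and 2 below. The part of these cell type markers in the results below was not tested. Over all 16266 tested genes the median log2 fold change was −0.02.

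HIF is a pair of proteins, an alpha subunit that is made all the time and an ARNT subunit. In the presence of oxygen the alpha subunit is hydroxylated on prolines by the EGLN enzymes, recognised by the VHL ubiquitin ligase and destroyed, so its activity is set mainly by protein stability and not by the level of its mRNA. When oxygen is low the pair binds DNA and switches on genes of blood vessel growth, glycolysis, collagen modification and survival. Egln1 and Egln3 are themselves targets and feed back on the pathway. Neural stem cells of the embryonic brain live in low oxygen, and the pathway is known for keeping them dividing and for drawing vessels towards them.

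HIF binds the short cores ACGTG and GCGTG. These were searched on both strands in the 250 bases before each transcription start of the RefSeq annotation (GRCm38.p6). Windows were found for 8 of the 10 genes, all but Ndrg1 and Epas1. There were 9 windows in all, of which 7 held at least 1 core. For comparison, 55.7% of the windows of all tested genes held at least 1 core, 23.2% at least 2 and 8.58% at least 3. A match is a description of the letters and not a binding site. The windows below show a target that was higher in Setd5+/− with 3 cores (P4ha1), 2 targets that were lower (Adm with 2 cores, Egln3 with 1), and the first window of Vegfa, which was higher and held none. They are written 5′ to 3′ on the strand of the gene, with the cores of either strand in capitals.
P4ha1, chr10:59323046-59323295, plus strand: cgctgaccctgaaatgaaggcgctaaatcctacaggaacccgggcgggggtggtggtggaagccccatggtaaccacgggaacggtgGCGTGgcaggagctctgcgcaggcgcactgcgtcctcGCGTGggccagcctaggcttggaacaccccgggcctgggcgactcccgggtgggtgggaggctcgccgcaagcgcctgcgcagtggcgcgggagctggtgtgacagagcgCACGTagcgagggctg
Adm, chr7:110627407-110627656, plus strand: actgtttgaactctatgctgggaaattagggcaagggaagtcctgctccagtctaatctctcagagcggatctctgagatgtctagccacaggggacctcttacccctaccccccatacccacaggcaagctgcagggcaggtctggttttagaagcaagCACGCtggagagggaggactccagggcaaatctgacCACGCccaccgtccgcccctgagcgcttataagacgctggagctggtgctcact
Egln3, chr12:54203875-54204124, minus strand: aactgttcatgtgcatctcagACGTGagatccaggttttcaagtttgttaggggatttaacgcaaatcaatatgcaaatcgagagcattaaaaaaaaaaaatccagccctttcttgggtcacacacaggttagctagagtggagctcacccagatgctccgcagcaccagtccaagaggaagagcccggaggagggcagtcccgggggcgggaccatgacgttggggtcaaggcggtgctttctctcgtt
Vegfa, chr17:46032378-46032627, minus strand: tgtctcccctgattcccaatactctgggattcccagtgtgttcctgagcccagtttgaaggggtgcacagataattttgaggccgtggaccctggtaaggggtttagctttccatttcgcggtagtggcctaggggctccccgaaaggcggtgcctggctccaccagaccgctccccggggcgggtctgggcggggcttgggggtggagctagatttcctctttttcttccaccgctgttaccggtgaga
Counted from the transcription start, the first bases of the cores lay at −163, −126 and −16 in P4ha1, at −90 and −54 in Adm, and at −229 in Egln3. A second Vegfa window, inside the gene, held 2, and 218 of its 250 bases lie in annotated exons. Ankrd37 (lower in Setd5+/−, under a mean of 10) held 3 matches, Egln1 (lower) and Hif1a (near 0) 2 each, and Vhl (lower) none in these letters. Bases farther from the start were not searched.

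Of the 10 genes, 9 passed the filter. Vegfa and Ndrg1 were at least 2-fold higher in Setd5+/−, where 10.3% of all tested genes were, and 0 were at least 2-fold lower, where 6.14% of all tested genes were. The counting interval lay above 0 for Vegfa, Ndrg1 and P4ha1, as it did for 32.6% of all tested genes, and below 0 for Epas1, Egln1, Egln3, Vhl and Adm, as it did for 32.7%. It held 0 for Hif1a alone. Without overlap between samples, 3 genes were higher, beside 32.4% of all tested genes, and 4 were lower, beside 32.9%. Since the same contrast was in view when the genes were chosen, nothing is read from these counts.

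**Figure D1:**
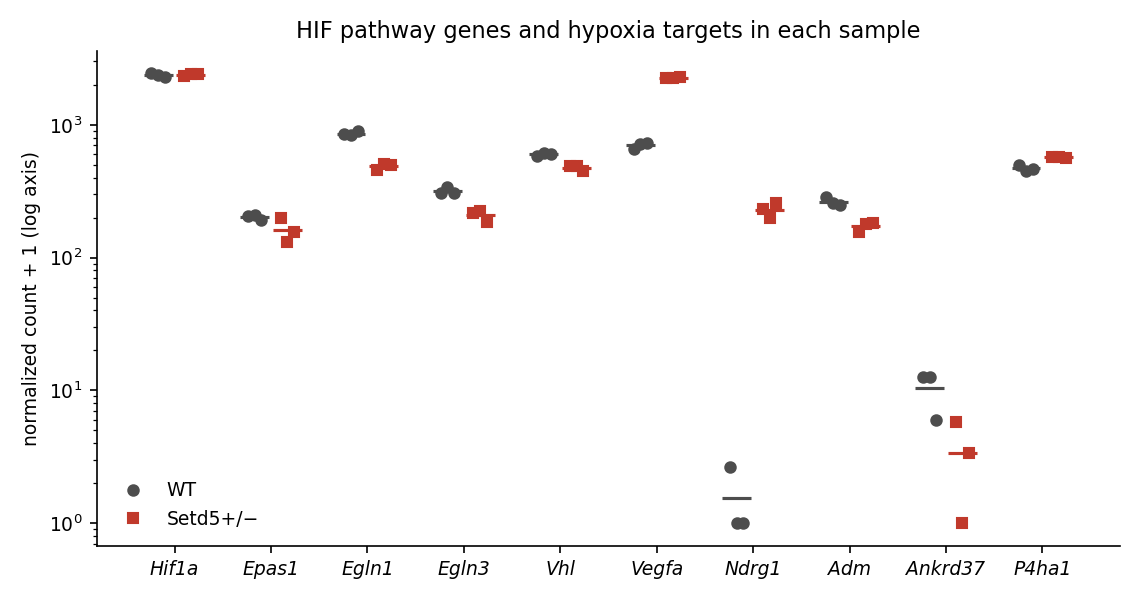
Normalized count + 1 on a log axis for each of the 10 genes in the 3 WT samples (grey circles) and the 3 Setd5+/− samples (red squares), with the mean + 1 as a line. Vegfa and Ndrg1 sit far apart between the genotypes, Hif1a lies at one level in both, and Ankrd37 lies near the bottom of the axis in both.

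**Figure D2:**
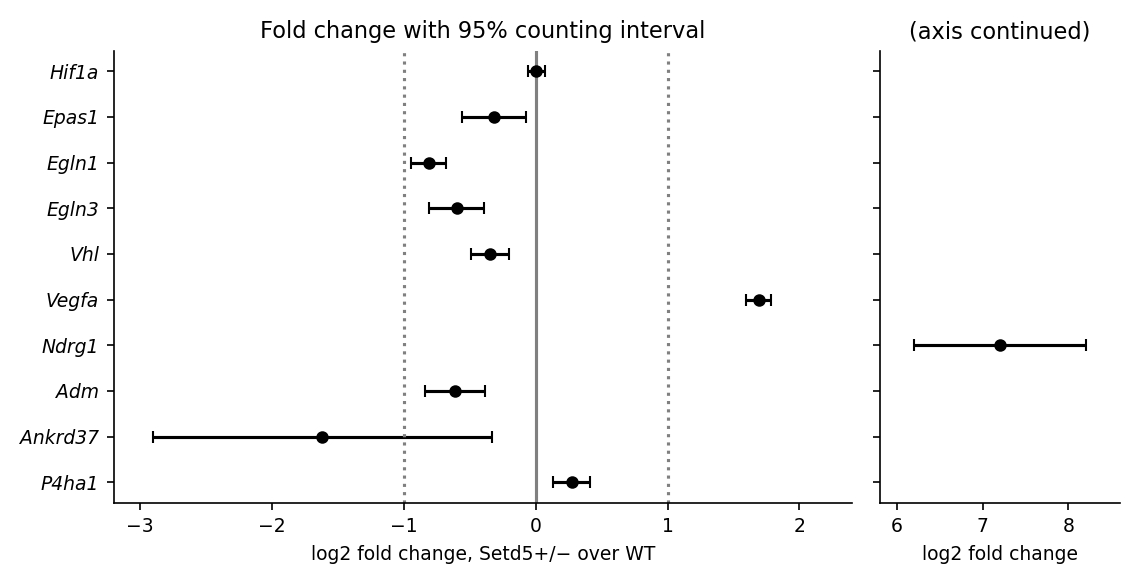
Log2 fold change of the 10 genes with the 95% counting interval as a bar, and dotted lines at 2-fold. The right panel continues the axis for Ndrg1 at 7.21, a value that depends on the pseudocount. Ankrd37 has the widest interval left of 0.

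The alpha subunits come first. Hif1a (ENSMUSG00000021109, chr12:73901375-73947530), which encodes HIF-1α, had 2444, 2374 and 2299.7 normalized counts in WT and 2320.5, 2427 and 2393 in Setd5+/−. The samples of the genotypes were interleaved. The fold change on the log2 scale was 0.00, and the interval of the difference was −0.06 to 0.07. Scaled to the upper quartile in place of the size factors of the authors, it was −0.080, with the interval at −0.15 to −0.01. Gm15283, an antisense transcript over exons of Hif1a, was at 246.3 and 245.8, and reads of such pairs cannot be separated where the kit does not mark strand. Gm49321, a protein-coding gene on the same strand that also shares exons with Hif1a, was at 99.9 in WT and 110.8 in Setd5+/−. How reads in these shared exons were counted is not given.

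Epas1 (ENSMUSG00000024140, chr17:86753700-86833410) encodes HIF-2α, the alpha subunit best known from vessels and from erythropoietin control. Its values were 203.2, 208.5 and 190.5 in WT and 197.8, 129.8 and 156.1 in Setd5+/−. The highest Setd5+/− sample lay within the WT range and the others below it. The mean was 1.24-fold lower (1.05 to 1.47), a log2 fold change of −0.31. Without Setd5+/− replicate 2 it was −0.18 with an interval of −0.45 to 0.09, which holds 0.

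The prolyl hydroxylases were both lower. Egln1 (ENSMUSG00000031987, chr8:124908587-124949324) encodes PHD2, the main enzyme that marks HIF-1α for destruction in normal oxygen. It had 856.6, 830.6 and 889.4 normalized counts in WT and 458.9, 506.1 and 500.3 in Setd5+/−. Every Setd5+/− sample was well below every WT sample. The mean was 1.76-fold lower (1.6 to 1.93), a log2 fold change of −0.81, and 9.0% of all tested genes had a lower one. Egln3 (ENSMUSG00000035105, chr12:54178981-54203860) encodes PHD3, whose mRNA is itself induced by HIF. Its values were 307.6, 337.5 and 306.4 in WT and 215.7, 225.1 and 185.8 in Setd5+/−. The groups did not overlap, and the mean was 1.52-fold lower (1.31 to 1.75). The third paralog, Egln2, was at 490.3 in WT and 426.1 in the mutant (log2 fold change −0.20, −0.35 to −0.05), so all 3 EGLN genes had an interval below 0.

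Vhl (ENSMUSG00000033933, chr6:113623959-113631633) encodes the subunit of the ubiquitin ligase that recognises hydroxylated HIF-α. Its values were 578.8, 616.3 and 605.4 in WT and 485.1, 484.7 and 444.3 in Setd5+/−. The groups did not overlap, and the mean was 1.27-fold lower (1.15 to 1.4). A pseudogene named Vhl-ps1 is annotated, and its part in the count of Vhl was not tested. Vhl lies on the chromosome of the targeted gene, with 470524 bases from the end of Setd5 to its start. Between them 31 genes are listed, of which 18 were tested. Of these, 9 had a log2 fold change above 0 and 9 below, and the median was 0.01. The interval lay above 0 for 4, beside 32.6% of all tested genes, and below 0 for 5, beside 32.7%. Il17rc, a receptor subunit for interleukin 17, at −1.96, was the 1 gene at least 2-fold lower, and 0 were 2-fold higher. The shares of all tested genes were 6.14% and 10.3%. Il17rc had 61 reads in WT and 9 in Setd5+/−, and passed the filter through the WT library alone.

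Among the targets, Vegfa (ENSMUSG00000023951, chr17:46016993-46032369) was the clearest to see. It encodes the main growth factor of blood vessels, which NSCs also secrete. It had 655.9, 710.7 and 727.9 normalized counts in WT and 2231, 2248 and 2291 in Setd5+/−. The lowest Setd5+/− sample was far above the highest WT sample. The mean was 3.23-fold higher (3.03 to 3.45), a log2 fold change of 1.69, which ranged from 1.65 to 1.72 when single samples were left out, and 95.8% of all tested genes had a lower one. In a culture, fewer cells of a type and less RNA per cell cannot be told apart. Endothelial cells, which Vegfa acts on, were hardly seen in either library, as the sum of 6 endothelial markers was 2.48 to 12.4 normalized counts in WT and 3.58 to 9.53 in Setd5+/−, with Emcn at 0 in both and Cdh5 and Cldn5 at 0 in Setd5+/−.

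Ndrg1 (ENSMUSG00000005125, chr15:66929318-66969640) encodes an N-myc downstream regulated protein that is strongly induced by hypoxia in many cells. It had 1.66, 0 and 0 normalized counts in WT and 230.0, 198.9 and 256.1 in Setd5+/−. Ndrg1 passed the filter through the Setd5+/− library alone. The WT library held 2 reads of it and the Setd5+/− library 575, and each Setd5+/− sample lay far above the highest WT sample. As read pairs this was 1 against 288, a ratio of normalized levels of 413 with an exact 95% interval of 73.7 to 16399, so the ratio is large but poorly fixed. By its level in Setd5+/−, Ndrg1 was ranked 3 among the genes with at most 3 reads in WT. Hoxa3, a homeobox gene, stood just above it with 0 reads in WT and 246.2 normalized counts in Setd5+/−, and the gene model Gm15851 just below with 210.9. In all, 36 tested genes had at most 3 reads in WT. Gm17035 and Gm2895, transcribed from the other strand over exons of Ndrg1, were listed at 0 in WT and at 40.1 and 7.54 in Setd5+/−, and their reads cannot be separated from those of Ndrg1. Ndrg1 is also known from oligodendrocytes, whose markers Mag and Mog had 4 and 7 reads in WT and 0 in Setd5+/−. Their part in the result was not tested.

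Adm (ENSMUSG00000030790, chr7:110627661-110629820) encodes adrenomedullin, a peptide that widens vessels and a standard HIF target. It had 285.3, 258.1 and 246.8 normalized counts in WT and 156.1, 178.6 and 179.9 in Setd5+/−. The groups did not overlap, and the direction was opposite to that of Vegfa. The mean was 1.53-fold lower (1.31 to 1.79), a log2 fold change of −0.62.

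Ankrd37 (ENSMUSG00000050914, chr8:45996902-46005707), an ankyrin repeat gene and a HIF target, was the member below the filter. It had 11.6, 11.6 and 4.97 normalized counts in WT and 4.77, 0 and 2.38 in Setd5+/−. These were 34 and 6 reads in all, and the highest Setd5+/− sample lay just under the lowest WT sample. The ratio over read pairs was 3.94-fold lower with an exact interval of 1.14 to 21.0. Ankrd37 shares exons with Ufsp2 and Lrp2bp on the other strand, which were at 265.9 and 14.1 in WT and at 192.2 and 3.97 in Setd5+/−.

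P4ha1 (ENSMUSG00000019916, chr10:59323296-59373304) encodes a catalytic subunit of the enzyme that hydroxylates prolines of collagen. It had 499.2, 446.7 and 462.1 normalized counts in WT and 574.5, 569.2 and 558.7 in Setd5+/−. The groups did not overlap, though they lay far closer together than for Vegfa. The mean was 1.21-fold higher (1.1 to 1.33).

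**Figure D3:**
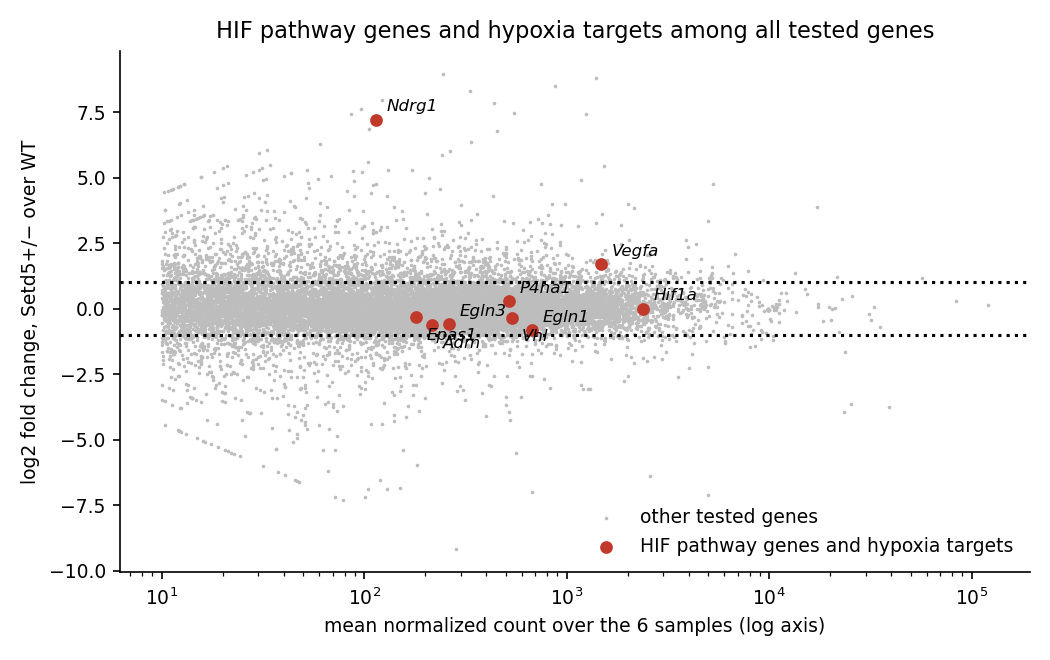
Log2 fold change against the mean normalized count (log axis) for all 16266 tested genes, with the 9 tested genes of the pathway in red and dotted lines at 2-fold. Vegfa and Ndrg1 lie above the upper line, and the other 7 lie between the lines.

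Levels of different genes were compared per kilobase of exons. In WT, Hif1a was the highest with 402.4 normalized counts per kb, followed by Egln1 with 239.0 and Vhl with 200.3. Vegfa and Adm came next with 162.9 and 162.7, then Egln3 with 119.2 and P4ha1 with 114.1, and both pairs overlapped between samples. Epas1 stood at 35.9, Ankrd37 at 6.10 and Ndrg1 at 0.0838. In Setd5+/− the order differed: Vegfa was the highest with 526.7 per kb, above Hif1a with 403.7. Vhl followed with 157.3, and then P4ha1 with 137.9 and Egln1 with 135.9, which overlapped. Adm was at 106.0, Egln3 at 78.5, Ndrg1 at 34.6 and Epas1 at 28.8, the last pair overlapping, and Ankrd37 at 1.55.

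**Figure D4:**
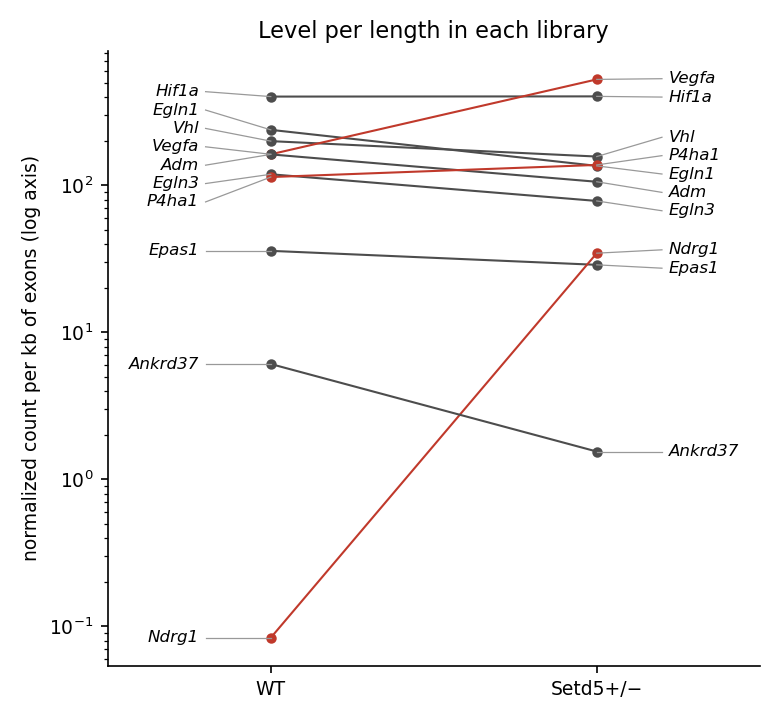
Normalized count per kilobase of exons on a log axis in the WT and the Setd5+/− library, 1 line per gene, in red for the 3 genes with an interval above 0. Vegfa passes Hif1a, Ndrg1 climbs from below all others to the level of Epas1, P4ha1 goes up slightly, and the grey lines run level or down.

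The wider pathway was then described from 11 lists of genes with 97 genes in all, of which 82 were tested. Of these, 14 were at least 2-fold higher and 8 at least 2-fold lower in Setd5+/−, and 30 and 37 had an interval above and below 0. These were 17.1%, 9.76%, 36.6% and 45.1% of the pathway genes tested, beside 10.3%, 6.14%, 32.6% and 32.7% of all tested genes, the shares that stand beside each list below as well. The median log2 fold change was −0.12, against −0.02 for all tested genes. Without the 10 genes above, 73 were tested, with 12 at least 2-fold higher, 8 lower and a median of −0.11. Tested genes of chromosome 1 had a median of 0.53 in this comparison. Without that chromosome 13 of 78 pathway genes were at least 2-fold higher and 8 lower, beside 9.22% and 6.37% of all tested genes.

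Most upstream genes of the pathway were lower or lay near 0 in log2 fold change. Of 6 tested HIF subunits and coactivators, none was 2-fold apart, 1 interval lay above 0 and 3 below, and the median was −0.07. Arnt2, the ARNT paralog of neural tissue, was the lowest (2239 normalized counts in WT, 1189 in the mutant, log2 fold change −0.91, −1.0 to −0.83), and Ep300, a histone acetyltransferase that HIF recruits, was the highest at 0.24 (0.15 to 0.34). Of 5 HIF hydroxylases, 3 intervals lay below 0 and 1 above, with a median of −0.20. P4htm, a transmembrane prolyl hydroxylase, stood at the other end from Egln1 with 89.2 and 161.2 normalized counts (0.85, 0.56 to 1.14). In the VHL ligase 4 of 5 genes had an interval below 0 and 0 above, with a median of −0.35, from Elob at −0.43 to Eloc, on chromosome 1, at 0.01. Of 7 tested other modulators 5 intervals lay below 0 and 1 above, with a median of −0.27, from Cited2, which competes with HIF for EP300, at −0.84 to Usp20, a deubiquitinase, at 0.38.

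Ligands went in both directions. Of 5 tested VEGF and adrenomedullin ligands, Vegfa and Pgf (placental growth factor, 11.6 and 26.2 normalized counts, 1.11) were at least 2-fold higher. Vegfb, at 827.2 and 391.1, and Vegfc, a factor for lymphatic vessels, at 45.8 and 6.75, were at least 2-fold lower, with −1.08 and −2.60. Vegfc passed the filter through the WT library alone. The median was −0.62, the value of Adm. Of 6 tested receptors 2 were at least 2-fold higher and 0 lower, 4 intervals lay above 0 and 0 below, and the median was 0.66. Calcrl, which binds adrenomedullin together with a RAMP protein, was at 480.4 in WT and 1229.8 in Setd5+/− (1.35, 1.24 to 1.47). Kdr, the main VEGF receptor of endothelium, was at only 6.35 and 17.9 (1.36, 0.46 to 2.26). Kdr had 23 reads in WT and 45 in Setd5+/−, and passed the filter through the Setd5+/− library alone. Ramp2 was the lowest at −0.11, and Ramp1 and Nrp2, on chromosome 1, were at 0.61 and 0.71.

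Of 10 collagen modifying enzymes, the group of P4ha1, 7 passed the filter. These 7 had an interval above 0, beside 32.6% of all tested genes, and 4 were at least 2-fold higher, beside 10.3%, with a median of 1.28. Plod2, a lysyl hydroxylase and HIF target, was at 251.8 in WT and 922.1 in Setd5+/− (1.87, 1.71 to 2.02), and Plod1 at 831.3 and 2352 (1.5). P4ha3, another collagen prolyl hydroxylase subunit, was at 22.1 and 55.2 (1.28), and Loxl2, a lysyl oxidase, at 2.21 and 21.4 (2.81, 1.72 to 3.89). P4ha1 itself had the smallest fold change of the 7. Of the 3 genes below the filter, Lox, the founding lysyl oxidase, had 16 reads in WT and 0 in Setd5+/−, whereas Loxl2 passed it through the Setd5+/− library alone. Without Loxl2 the median of 6 genes was 0.90, with 3 at least 2-fold higher. The median was 0.80 without Setd5+/− replicate 2 and 0.51 with a filter at a mean of 50. The 6 markers of pericytes and mesenchymal cells, which make collagen, summed to 16.5 to 22.4 normalized counts in WT and to 9.53 to 21.5 in Setd5+/−, with Pdgfrb and Col1a2 at 0 in Setd5+/−.

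Of 19 tested survival and signalling genes that hypoxia induces, 9 intervals lay above 0 and 5 below, with a median of 0.11. Besides Ndrg1, the genes at least 2-fold higher were Ero1l, an oxidase of the endoplasmic reticulum, at 141.9 and 550.0 (1.95, 1.74 to 2.15), and Insig2 on chromosome 1, which restrains sterol synthesis, at 202.1 and 467.4 (1.21). Angptl4, an inhibitor of lipoprotein lipase, was the 1 gene at least 2-fold lower, at 181.4 and 20.6 (−3.07, −3.62 to −2.53). Of 19 tested glycolysis genes that hypoxia induces, 11 intervals lay below 0 and 5 above, with a median of −0.61. Those at least 2-fold lower were Pdk1, which holds pyruvate back from the mitochondria (279.9 and 100.9, −1.46), Ldha, which makes lactate (1163 and 456.7, −1.35), Pfkl (−1.28), Gpi1 (−1.21) and Gapdh (−1.20). Those at least 2-fold higher were the neuronal glucose transporter Slc2a3 (102.7 and 319.3, 1.63), Pfkfb3, which makes an activator of phosphofructokinase (184.7 and 527.8, 1.51), and Pfkp, a phosphofructokinase isoform (1.12). Gapdh, Eno1, Pgk1, Ldha and others have near-identical processed copies in the genome, so their counts are uncertain. Over both lists together 6 genes were at least 2-fold higher and 6 lower.

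Within the NDRG family of 4 genes, the others were lower where Ndrg1 was higher. Ndrg2, a gene of glia, had 3175 and 1919 normalized counts (−0.73, −0.79 to −0.66), Ndrg4 126.7 and 73.1 (−0.79), and Ndrg3 824.6 and 748.9 (−0.14), with all 3 intervals below 0. Csf1r, the receptor that carries the microglia sum of 78.6 to 116.9 in WT and 48.9 to 70.3 in Setd5+/−, was the 1 tested microglial marker at −0.86, with Ptprc and Cx3cr1 at 0 in both libraries.

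**Figure D5:**
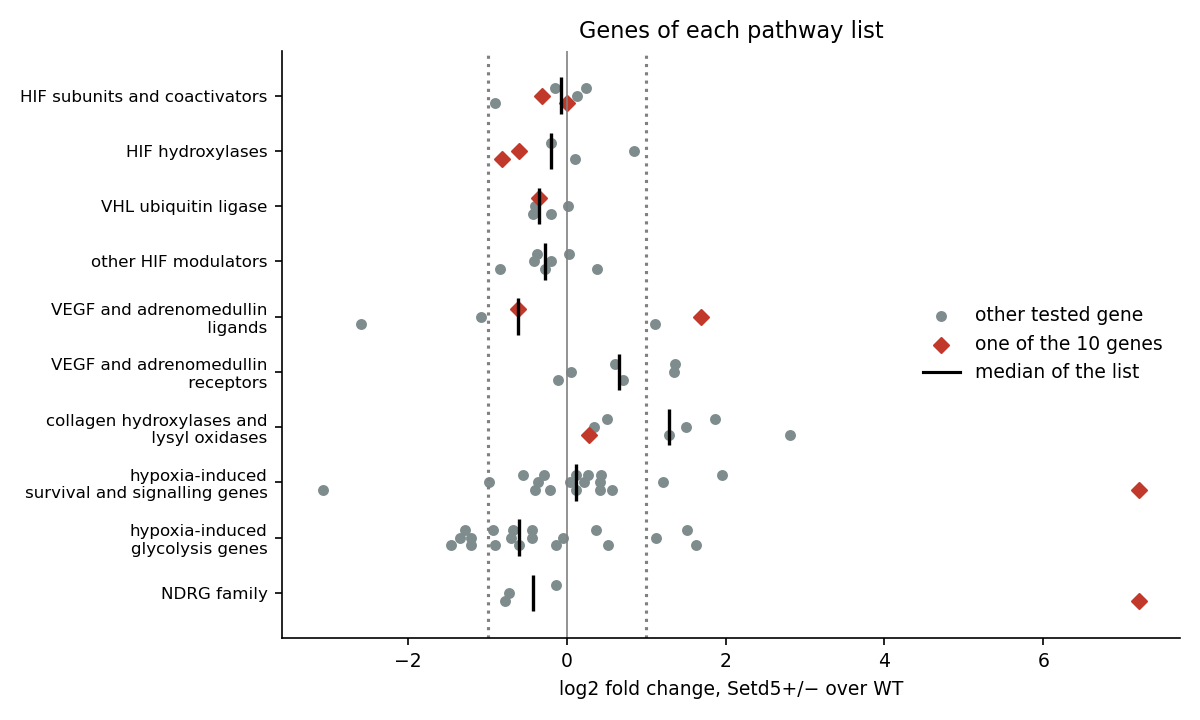
Log2 fold change of each tested gene of 10 lists, 1 row per list, with the 10 genes described first as red diamonds, other genes in grey, a black bar at the median of the list and dotted lines at 2-fold. The tested genes of the collagen list lie right of 0, the VHL ligase list near or left of 0, and both lists of hypoxia-induced genes spread over both sides.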

How the data were processed

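RNA-seq of WT and Setd5+/− NSCs was used, with 3 labelled samples per genotype. Per the study's methods and the labels, the authors trimmed reads with Trimmomatic, aligned them to mm10 with Bowtie2 and normalized the gene counts with DESeq2. The counting program and its strand setting are not given in the sources used here. The authors deposited 1 table of normalized counts, whose decimal points are damaged, and which also holds their own comparison (fold changes and p-values), not used here. All 6 columns of samples were used.

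Decimal points were restored by requiring whole reads, given what 1 read was worth in each sample. In 1117 genes the mean deposited by the authors settled the choice, and 672 genes hold no values. The restoration and the intervals were tested on simulated data. Samples of a genotype were counted as 1 library, since they agreed within sampling noise. Levels are means over the 3 normalized samples, and reads were summed over them for the read totals and the exact ratios. Fold changes used a pseudocount of 1 and genes with a mean of at least 10. The interval takes the variance as 1.94 times the mean, the value found within genotypes, since both reads of a pair were counted. Intervals and floors cover counting error only. With 1 library per genotype no test was run. Ratios of genes near the floor of 3 reads are exact binomial intervals over read pairs (Clopper-Pearson).

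The 10 genes, the 11 pathway lists, the 7 marker lists (neural stem cell, neuron, astrocyte, oligodendrocyte lineage, endothelial cell, pericyte and mesenchymal cell, microglia) and the rule for names were chosen with earlier results of these data known. Named were the 10 genes, Setd5, in each pathway list every tested gene at least 2-fold apart and those with the highest and the lowest fold change, the neighbours of Ndrg1 among genes near 0 in WT, and genes between Setd5 and Vhl. Other genes were named after their values were seen. Positions and exon lengths are from GENCODE M21 (GRCm38, the same build as mm10), promoters from RefSeq (GRCm38.p6). Alternatives were other pseudocounts, scalings, filters and folds, averaging on the log scale, and leaving out each of the 6 samples. Python 3.11.15, numpy 2.4.6, pandas 2.3.3 and scipy 1.17.1 were used.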

Additional observations from a re-analysis of the deposited data

How the results depend on the processing

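No paired analysis was possible because the results come from no test and the samples of a genotype are parts of 1 library. With a pseudocount of 10 the log2 fold change of Ndrg1 was 4.50 in place of 7.21. Scaled to the upper quartile, that of Hif1a was −0.080 and the median of all tested genes −0.10. With a pseudocount of 0, Ndrg1 with its 2 reads in WT is left out. There 1 of the 10 genes was at least 2-fold higher, beside 10.4% of all tested genes. With any value above 0 as the filter, 1 of the 10 (Ankrd37) was at least 2-fold lower, beside 8.96% of all genes that passed it. Under that filter the median of the HIF subunits and coactivators was 0.0048 in place of −0.07. At 1.5-fold, 3 of the 10 and 21 of the pathway genes were lower and 2 and 17 higher, beside 15.5% and 19.7% of all tested genes.

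Leaving out 1 sample each, the log2 fold change ranged from −0.02 to 0.03 for Hif1a, −0.49 to −0.18 for Epas1, −0.84 to −0.77 for Egln1, −0.66 to −0.52 for Egln3, −0.37 to −0.31 for Vhl, 1.65 to 1.72 for Vegfa, 6.97 to 7.84 for Ndrg1, −0.66 to −0.55 for Adm, −2.24 to −1.18 for Ankrd37 and 0.24 to 0.32 for P4ha1. The number of the 10 genes with an interval below 0 was 4 to 5, the lower one without Setd5+/− replicate 2, where that of Epas1 held 0. The alternatives without chromosome 1 and without Loxl2 were chosen after seeing the data. With and without chromosome 1 the pathway counts were within 1.5 times of each other. Of 380 values under the alternatives, 373 stayed within the limits set (the counting interval for a fold change, 1.5 times for a count, the sign for the median of a list). Many of these values leave out 1 sample, a part of 1 library, and so could hardly move beyond counting error. Depth limits Ndrg1 in WT and Ankrd37 in both libraries, and no replicate limits how far any difference reaches beyond these 2 libraries.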
